A study of Mus musculus with 4 samples.

Results

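A set of 9 genes of the interferon and RNA sensing pathway was followed through the RNA of mouse embryonic stem cells: the double-stranded RNA sensors Ifih1 and Eif2ak2, the synthetase Oas1a, the transcription factors Stat2, Irf9 and Irf1, and the effectors Irgm1, Bst2 and Ifitm3. They were chosen with earlier results of these data known, and all 9 were found, 1 row each, among 23697 loci of the deposited table. Both groups were cells of the WW6 line, of mixed C57/B6J, 129/Sv and SJL background, grown without feeders and transiently transfected with a lipid reagent. Knockdown cells received small interfering RNA (siRNA) against Kdm5b, a histone H3 lysine 4 demethylase, and control cells received siRNA against GFP, 2 libraries each, named A and B. Since every library came from siRNA-transfected cells, a response to transfection shared by both groups cannot be told apart from the cells' resting state. The comparison asks only whether the genes differed between the siRNA against Kdm5b and the one against GFP. Whether libraries A and B came from separate cultures is not stated in the labels, so the p-values may measure technical spread only.

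In the cytosol, long double-stranded RNA is bound by sensors such as MDA5, the product of Ifih1, and by the kinase PKR and the OAS synthetases. Sensing leads to interferon release, and interferon receptors act through JAK kinases on STAT proteins, among them STAT2, which joins IRF9 in a complex that binds the interferon-stimulated response element of target promoters. Interferon gamma acts on promoters through a different motif, the gamma-activated sequence. Embryonic stem cells are known for a weak interferon response compared with differentiated cells.

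The promoters of the 9 genes were read for 2 motifs that mediate interferon responses, and the stretches with matches are printed here because they show which members hold which motif. RefSeq windows from 250 bases before to 50 bases after each annotated start (GRCm38.p6) were searched on both strands for the response element core (GAAA, any 2 bases, then GAAA) and for the gamma-activated sequence TTCNNNGAA. The core was found in 7 of the 9 genes, against 3.99% of 27025 genes in the RefSeq table, and the gamma-activated sequence in 5 of 9, against 9.55%. Irf1 held the second motif and not the first, and neither was in the windows of Irf9. Each sequence below reads 5′ to 3′ on the gene's strand, and capitals mark the core, or in Irf1 the gamma-activated sequence. For Irgm1 the whole 250 bases before the start are given, at chr11:48871421-48871670 on the minus strand.
Irgm1: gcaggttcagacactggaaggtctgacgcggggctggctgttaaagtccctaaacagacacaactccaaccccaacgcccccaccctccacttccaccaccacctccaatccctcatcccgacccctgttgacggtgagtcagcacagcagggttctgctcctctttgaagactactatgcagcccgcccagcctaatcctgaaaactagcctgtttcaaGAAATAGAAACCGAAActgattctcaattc
Oas1a: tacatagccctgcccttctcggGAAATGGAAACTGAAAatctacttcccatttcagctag
Bst2: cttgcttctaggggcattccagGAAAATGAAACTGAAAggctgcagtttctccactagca
Ifitm3: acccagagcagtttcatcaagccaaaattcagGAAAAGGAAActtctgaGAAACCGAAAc
Stat2: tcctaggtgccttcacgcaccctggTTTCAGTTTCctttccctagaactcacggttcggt
Eif2ak2: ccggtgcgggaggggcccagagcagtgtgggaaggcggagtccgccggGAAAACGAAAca
Ifih1: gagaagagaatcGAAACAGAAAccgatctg
Irf1: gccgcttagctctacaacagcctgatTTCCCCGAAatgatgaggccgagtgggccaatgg
On GRCm38.p6 the shorter stretches lie at chr5:120907508-120907567 (Oas1a, minus), chr8:71537565-71537624 (Bst2, minus), chr7:141010715-141010774 (Ifitm3, minus), chr10:128270251-128270310 (Stat2, plus), chr17:78882543-78882602 (Eif2ak2, minus), chr2:62646206-62646235 (Ifih1, minus) and chr11:53769898-53769957 (Irf1, plus).

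Irgm1, Oas1a and Bst2 shared one arrangement, 2 overlapping cores that make 3 evenly spaced repeats of GAAA. This longer form, which was looked for after the sequences were seen, was present in 0.133% of all genes. It began 30 bases before the start in Irgm1, 20 bases before it in Oas1a and 130 bases before it in Bst2. Ifitm3 held 2 separate cores with its gamma-activated match between them, overlapping the second, and in Bst2 the gamma-activated match overlapped the first core. In Stat2 the core lay on the other strand. A match describes letters and not a bound site.

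**Figure D1:**
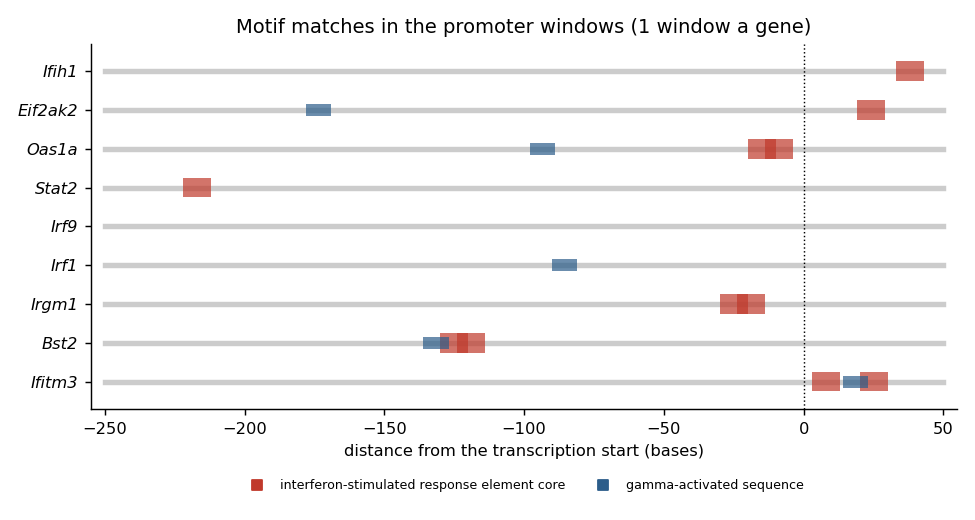
Motif matches in the promoter window of each of the 9 genes (Irf1 and Irf9 have 2 windows each, of which the first is drawn), by distance in bases from the annotated transcription start (dotted line). Red boxes mark the interferon-stimulated response element core, seen in 7 genes, and blue boxes the gamma-activated sequence, seen in 5.

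Before the values, 1 library stood apart. Knockdown A listed 11953 loci at 0, against 8609 in knockdown B and 8131 and 8281 in control libraries A and B, and its depth, estimated from the steps between low values, was 76.5% of that of control B. Among the 3153 loci averaging 1 to 5 FPKM (fragments scaled by transcript length and by the mapped fragments of the library), 24.5% were at 0 in knockdown A and 1.1% to 1.8% in the other libraries. Over loci averaging at least 1 FPKM, log2(FPKM + 1) correlated at 0.89 between the knockdown libraries and 0.94 between the controls. Knockdown B correlated at 0.941 with control A and 0.957 with control B, above its correlation with knockdown A. The targeted gene Kdm5b stood at 22.7 and 31.1 FPKM in knockdown libraries A and B, against 99.7 and 145 FPKM in control libraries A and B. Of 8 embryonic stem cell markers, all were above 0 in every library, with summed levels of 4630 and 3890 FPKM in the knockdown libraries and 3490 and 4290 FPKM in the controls. Of 7 leukocyte markers found, Adgre1, Lyz2 and Tyrobp were at 0 throughout, and the list summed to 2.37 and 0.809 FPKM in knockdown and 1.17 and 1.67 FPKM in control libraries. The 8 fibroblast markers summed to 0.258 and 1.85 FPKM in knockdown and 9.39 and 2.92 FPKM in control libraries, mostly from Acta2 and Thy1, with Lum at 0 throughout; their part in the results was not tested.

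In these cells the 9 genes spanned a wide range of levels. Averaged over the 4 libraries, Ifitm3 was the highest at 219 FPKM, followed by Bst2 at 34.3, Irf1 at 23.2, Irf9 at 9.66, Eif2ak2 at 7.48, Irgm1 at 7.27, Stat2 at 6.97, Oas1a at 1.06 and Ifih1 at 0.078 FPKM. Only the steps between Ifitm3 and Bst2 and between Stat2 and Oas1a separated neighbours whose ranges over the libraries did not overlap. Ifitm3 and Bst2, which encode membrane proteins that restrict viruses, stood above Ifih1, Eif2ak2 and Oas1a in all 4 libraries.

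Of the 9 genes 8 averaged at least 1 FPKM and entered the test, limma on log2(FPKM + 1) over 11784 loci. None of the 8 was called at an adjusted p under 0.05, where 0.0339% of all tested loci were called, and 1, Irgm1, had an unadjusted p under 0.05, where 2.46% did. Of the 8, 3 stood on the higher side in knockdown cells and 5 on the lower side, with a median log2 fold change of -0.22, against -0.03 over all tested loci. The members' median depended on single libraries and was -0.03 without knockdown A, -0.02 without control B and -0.34 without knockdown B. Both knockdown libraries lay outside the control range for 4 of the 8, 1 above (Irgm1) and 3 below (Stat2, Eif2ak2 and Bst2). Over all tested loci, groups did not overlap at 31.9%, with 15.0% higher and 16.9% lower. Knockdown A lay outside the range of the other 3 libraries for 7 of the 8, against 71.6% of all tested loci, and knockdown B outside the control range for 4 of the 8, against 58.6%. RNA was measured in bulk, so fewer cells expressing a gene and less RNA per cell cannot be told apart.

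**Figure D2:**
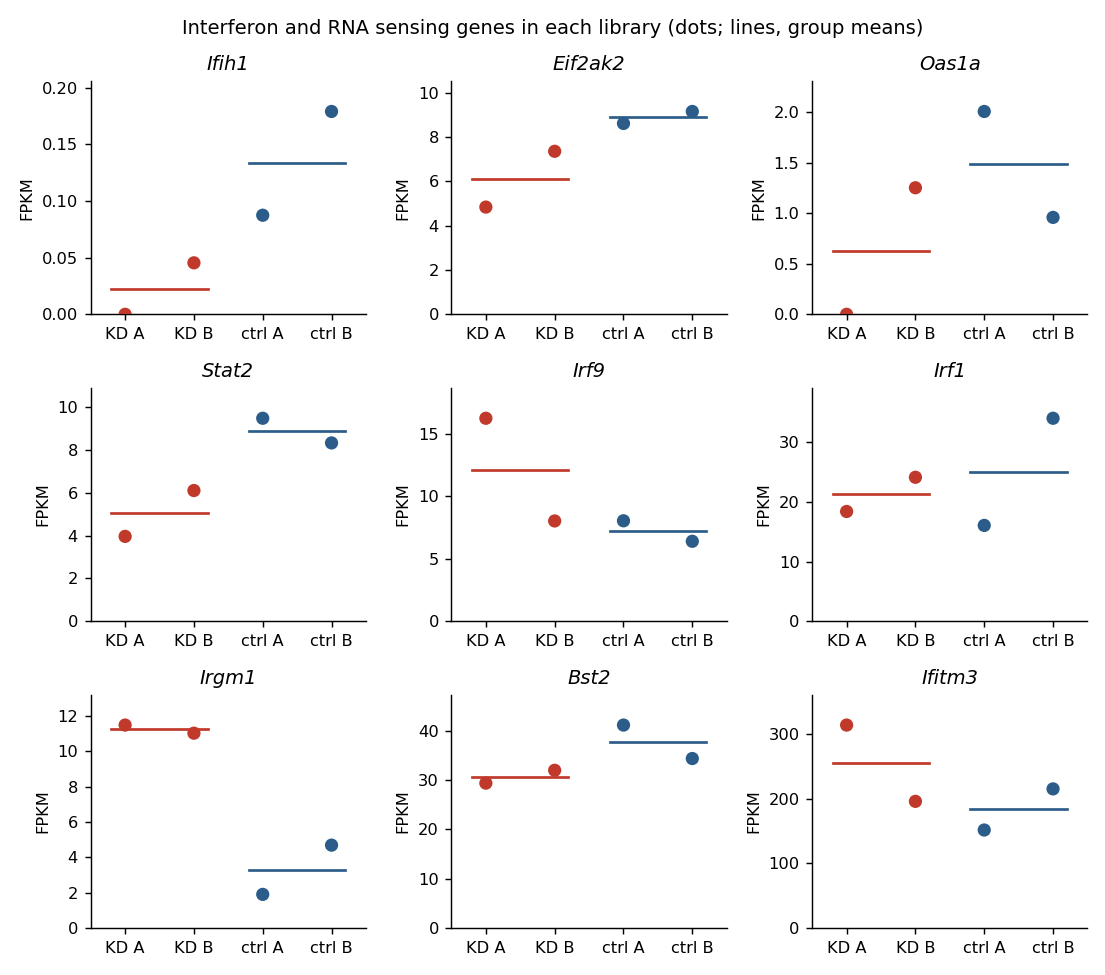
FPKM of each of the 9 genes in each library, on its own linear axis from 0; dots are libraries (red, knockdown A and B; blue, control A and B) and lines are group means. Irgm1 is the 1 gene of the 9 with both knockdown libraries above both controls.

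Ifih1 encodes MDA5, a helicase that binds long double-stranded RNA. At mm9 chromosome 2, 62433849 to 62484312, it stood at 0 and 0.0454 FPKM in knockdown libraries A and B, against 0.0874 and 0.179 FPKM in control libraries A and B. These levels lie below the filter of 1 FPKM, so no fold change was fitted, and a difference was not detectable at this depth. Most loci this low were at 0 in knockdown A, 83.4% of the 5388 with a mean between 0 and 1 FPKM, against 36.8% in knockdown B.

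Eif2ak2 encodes PKR, a kinase that double-stranded RNA activates and that then slows translation. At mm9 chromosome 17, 79251889 to 79281912, it stood at 4.83 and 7.35 FPKM in knockdown libraries A and B and at 8.61 and 9.15 FPKM in control libraries A and B. In the same order these values stand for an estimated 64.8, 127.1, 154.5 and 160.3 fragments. Both knockdown libraries were below both controls, knockdown A further than knockdown B. The means were 6.09 ± 1.78 and 8.88 ± 0.383 FPKM (SD, n = 2 each), and the log2 fold change was -0.50 (standard error 0.36, limma adjusted p = 0.918). It was -0.24 without knockdown A and -0.76 without knockdown B.

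Oas1a makes the short oligoadenylates that switch on the nuclease RNase L. At mm9 chromosome 5, 121346265 to 121357534, it was listed at 0 and 1.25 FPKM in knockdown libraries A and B, against 2.01 and 0.96 FPKM in control libraries A and B. Knockdown B lay between the controls, and knockdown A alone lay below them, so the groups overlapped. Behind the 3 values above 0 stood an estimated 8.9, 14.8 and 6.9 fragments, and Oas1a belongs to a tandem cluster of similar genes whose shared fragments may have been split in counting. With a standard error of 0.74 (limma adjusted p = 0.918), the log2 fold change of -0.69 had the widest interval of the 8, -2.50 to 1.11, and was -0.11 without knockdown A. It was -2.02 with a pseudocount of 0.1 and -0.17 with quantile normalization.

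Stat2 encodes the transducer that carries the interferon signal from type I receptors to the nucleus. At mm9 chromosome 10, 127707631 to 127729905, it stood at 3.96 and 6.11 FPKM in knockdown libraries A and B and at 9.49 and 8.34 FPKM in control libraries A and B, an estimated 54.2, 107.7, 173.7 and 148.9 fragments. Both knockdown libraries were below both controls. The knockdown mean of 5.04 ± 1.52 FPKM was 56.5% of the control mean of 8.91 ± 0.817 FPKM (SD, n = 2 each). The log2 fold change was -0.74 (standard error 0.37, 95% interval -1.64 to 0.17, limma adjusted p = 0.918), and it was -0.48 without knockdown A and -1.00 without knockdown B.

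Irf9, the DNA-binding partner of STAT2, leaned to the higher side. At mm9 chromosome 14, 56222821 to 56228867, it stood at 16.2 and 8.01 FPKM in knockdown libraries A and B, against 8.02 and 6.38 FPKM in control libraries A and B. Knockdown A was the only library that stood clear of the rest, while knockdown B and control A were nearly equal. The log2 fold change was 0.61 (standard error 0.42, limma adjusted p = 0.918) and 0.14 without knockdown A.

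Irf1 encodes a transcription factor that interferon gamma induces, and its window holds the gamma-activated sequence printed above. At mm9 chromosome 11, 53583515 to 53591876, it stood at 18.4 and 24.2 FPKM in knockdown libraries A and B and at 16.1 and 34.1 FPKM in control libraries A and B. Both knockdown libraries lay between the controls, which differed from each other more than the groups did. The log2 fold change was -0.15 (standard error 0.41, 95% interval -1.14 to 0.84, limma adjusted p = 0.96), and its sign turned to 0.37 without control B and to 0.04 without knockdown A.

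Irgm1, an interferon-inducible GTPase that regulates the related GTPases at membranes and takes part in autophagy in mouse, differed most of the 8. At mm9 chromosome 11, 48678750 to 48684848, it stood at 11.5 and 11.0 FPKM in knockdown libraries A and B, against 1.9 and 4.68 FPKM in control libraries A and B. Behind these levels were an estimated 77.1 and 95.4 fragments in the knockdown libraries and 17.1 and 41.1 in the controls. The knockdown libraries nearly coincided, and the controls lay below them and apart from each other. The knockdown mean of 11.2 ± 0.328 FPKM was 342% of the control mean of 3.29 ± 1.97 FPKM (SD, n = 2 each). The log2 fold change was 1.59 (standard error 0.45, 95% interval 0.51 to 2.68), larger than at 99.6% of tested loci, and its unadjusted p of 0.011 ranked 35 of 11784. The limma adjusted p was 0.918, so Irgm1 did not pass the threshold over all loci. Because the genes were chosen with earlier results of these data known, its rank is not independent support. With 1 library left out at a time the fold change lay between 1.11 (without control A) and 2.08 (without control B), and it was 1.57 without knockdown A, the library that stands apart.

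Bst2 encodes tetherin, which holds budding viruses at the cell surface. At mm9 chromosome 8, 74058160 to 74061336, it stood at 29.4 and 32.0 FPKM in knockdown libraries A and B and at 41.2 and 34.4 FPKM in control libraries A and B, an estimated 56.8, 79.7, 106.5 and 86.8 fragments in that order. Both knockdown libraries were below both controls, by a margin between knockdown B and control B that is small beside the gap between the controls. The means were 30.7 ± 1.85 and 37.8 ± 4.81 FPKM (SD, n = 2 each), and the log2 fold change was -0.29 (standard error 0.25, limma adjusted p = 0.918), or -0.16 without control A.

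Ifitm3 encodes a membrane protein that blocks viral fusion and is also known as a marker of early germ cells in mouse (Fragilis). At mm9 chromosome 7, 148195488 to 148196643, it stood at 314 and 196 FPKM in knockdown libraries A and B, against 152 and 215 FPKM in control libraries A and B, an estimated 489.7, 394.1, 316.5 and 438.6 fragments in that order. Knockdown B lay between the controls and knockdown A above both. The log2 fold change was 0.46 (standard error 0.31, limma adjusted p = 0.918), with values of 0.12 without knockdown A and 0.20 without control A. Its relative Ifitm1, named after its values were seen, leaned the same way, at 323 and 360 FPKM in knockdown libraries A and B and 218 and 292 FPKM in control libraries A and B, without overlap, by 0.43 on the log2 scale (standard error 0.23, limma adjusted p = 0.918). The relative Ifitm2 leaned the other way, at 161 and 361 FPKM in knockdown libraries A and B and 293 and 406 FPKM in control libraries A and B, for which the log2 fold change was -0.52 (standard error 0.41, limma adjusted p = 0.918). The genes of this family are similar in sequence, so the split of fragments between them is uncertain.

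**Figure D3:**
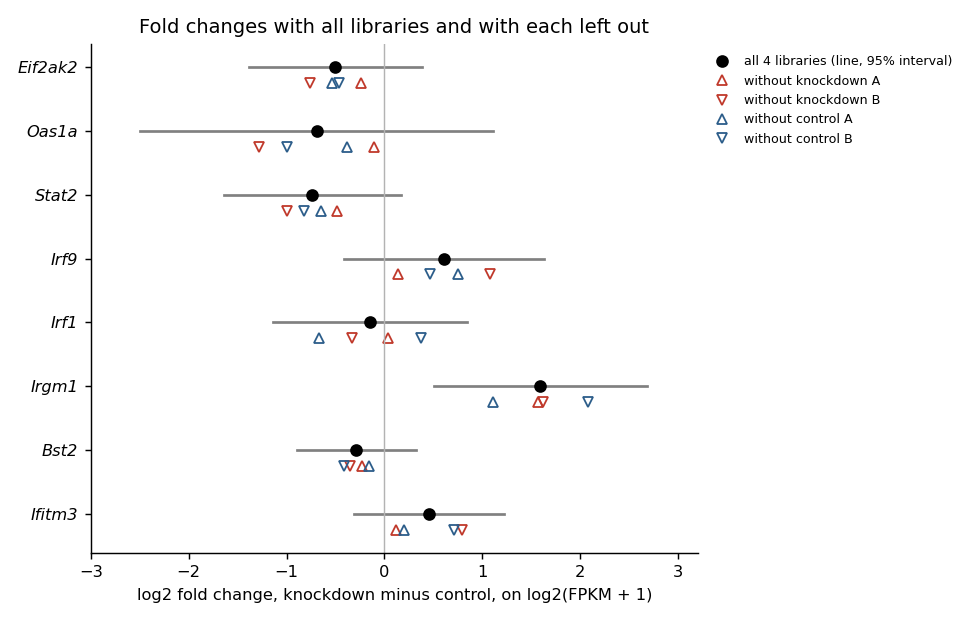
Log2 fold change of the 8 tested genes, knockdown minus control, on the log2(FPKM + 1) scale. Black dots with grey 95% intervals use all 4 libraries and open triangles leave out 1 library; the Irgm1 interval lies above 0 before adjustment, and the triangles of Irf1 fall on both sides of 0.

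The wider pathway was then read through 9 lists by role, with 111 of 116 genes found and 67 tested, each counted once. By limma none was called in either direction, 2 had an unadjusted p under 0.05 (Irgm1 and Aim2), 29 stood on the higher side and 38 on the lower side, and the median log2 fold change was -0.09. The groups did not overlap for 8 genes higher and 12 lower in knockdown cells. Over all tested loci 2.46% had an unadjusted p that low, and knockdown libraries lay above both controls at 15.0% and below both at 16.9%, so these counts lie near the background. Each tested gene named below had a limma adjusted p of 0.918 or more.

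At the top of the pathway the 4 interferon genes on the list, Ifnb1, Ifna4, Ifne and Ifng, stood at 0 in all 4 libraries. Other interferon genes were not looked up. Of the receptors, Ifnar1, a subunit of the type I receptor, stood at 12.1 and 11.0 FPKM in knockdown libraries A and B and 8.07 and 11.3 FPKM in control libraries A and B. Ifngr2, a subunit of the interferon gamma receptor, differed by -0.67 on the log2 scale (standard error 0.61) and the lambda receptor subunit Ifnlr1 by -0.90 (standard error 0.73). The 5 tested receptor genes had a median of -0.14, which was -0.51 without control A and 0.30 without control B.

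Of 15 genes for RNA sensors and adaptors, 10 were tested and 6 leaned lower, with a median of -0.08 that was 0.05 without control B and 0.02 without knockdown B. Rnf135, a ubiquitin ligase that acts on RIG-I, stood at 0 and 2.14 FPKM in knockdown libraries A and B, against 1.29 and 2.11 FPKM in control libraries A and B. Adar, which edits adenosines in double-stranded RNA, stood at 9.93 and 13.2 FPKM in knockdown libraries A and B and 22.1 and 13.1 FPKM in control libraries A and B, and its locus overlaps another in the table. For both genes 1 library was far from the other 3. The most abundant of the list, Trim25, another ligase of this step, differed on the log2 scale by 0.29 (standard error 0.29).

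Of 4 tested genes for DNA sensors and adaptors 3 stood on the higher side, with a median of 0.53 that rests on Aim2 and Sting1. Trex1 and Samhd1 differed by 0.13 and -0.03 on the log2 scale, and Cgas and Ifi204 fell below the filter. Aim2, which binds cytosolic DNA and starts an inflammasome, stood at 20.3 and 13.6 FPKM in knockdown libraries A and B, against 9.29 and 6.44 FPKM in control libraries A and B. Both knockdown libraries were above both controls, and the log2 fold change was 1.01 (standard error 0.36). Sting1, the adaptor of cytosolic DNA sensing, stood at 3.6 and 1.9 FPKM in knockdown libraries A and B and 0.861 and 0.992 FPKM in control libraries A and B, again without overlap (log2 fold change 0.92, standard error 0.57). The control mean of Sting1, 0.926 FPKM, lies under the filter of 1 FPKM, which it passed through the knockdown libraries. The list's median was 0.12 with no filter and 0.13 with a filter at 5 FPKM.

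Of 7 tested kinases and factors that carry the signal from sensors, 5 leaned lower, with a median of -0.33 that was -0.03 without knockdown A. Traf3, a ubiquitin ligase of this step, stood at 1.43 and 1.76 FPKM in knockdown libraries A and B and 3.0 and 3.63 FPKM in control libraries A and B. Traf6, a relative, stood at 2.12 and 8.16 FPKM in knockdown libraries A and B, against 9.61 and 8.65 FPKM in control libraries A and B. In Traf3 both knockdown libraries were well below the controls, in Traf6 mainly knockdown A. Nfkb1, the most abundant, differed by 0.13 on the log2 scale (standard error 0.26).

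The 8 tested JAK, STAT and IRF genes divided 4 to 4 (median -0.02, or 0.02 with quantile normalization and 0.10 without control B), with Stat2 and Irf9 at the extremes. Stat3, through which leukemia inhibitory factor keeps mouse stem cells undifferentiated, was the most abundant, at 26.3 and 32.5 FPKM in knockdown libraries A and B and 45.7 and 31.1 FPKM in control libraries A and B. Of 8 tested inhibitors 6 leaned lower (median -0.08, or -0.28 without knockdown B). Socs1, a feedback inhibitor of JAK kinases, was listed at 0 and 5.31 FPKM in knockdown libraries A and B, against 0.444 and 1.82 FPKM in control libraries A and B, so the knockdown libraries held both the lowest and the highest value. Ptpn11, a phosphatase, differed by -0.38 on the log2 scale (standard error 0.33), and Socs3, the most abundant inhibitor, by 0.04 (standard error 0.28).

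Antiviral effectors were the largest list, and 12 of 31 genes found were tested. Ifit3, Ifi27, Ifi44 and Sp100 were listed at 0 in all 4 libraries. Isg15 was at 0 and 0 FPKM in the knockdown libraries and 0 and 0.417 FPKM in the controls, and Ifit1 at 0.744 and 0.482 FPKM in knockdown and 0 and 0.19 FPKM in control libraries; both were singled out after their values were seen, as standard interferon targets. Of the tested effectors 5 leaned higher and 7 lower (median -0.25), and without knockdown A the median was 0.10. Xaf1, a pro-apoptotic interferon target, stood at 0.126 and 2.06 FPKM in knockdown libraries A and B and 1.89 and 2.70 FPKM in control libraries A and B. Oas1c, a relative of Oas1a, was at 0 and 2.71 FPKM in knockdown libraries A and B, against 1.63 and 2.78 FPKM in control libraries A and B. In both genes knockdown A alone was low.

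**Figure D4:**
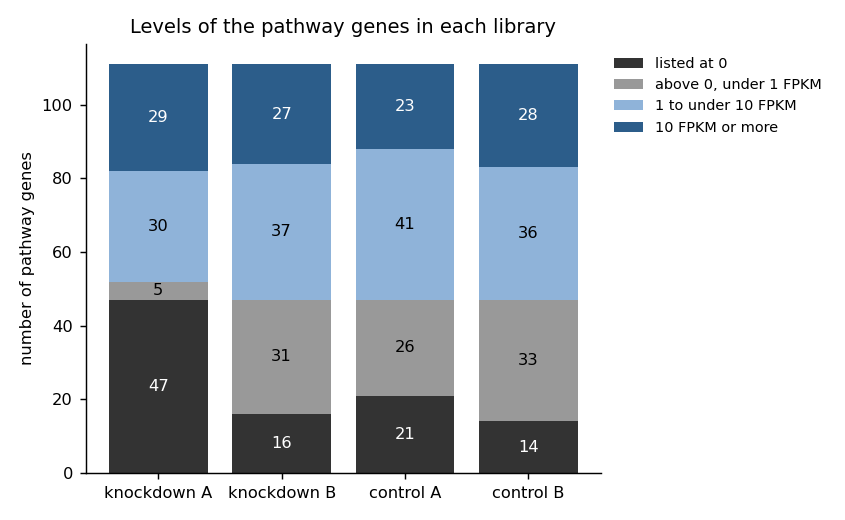
Number of the 111 pathway genes at each level of FPKM in each library. Knockdown A lists 47 at 0, against 16 in knockdown B, 21 in control A and 14 in control B, and few at low levels above 0.

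Of the list of interferon-inducible GTPases, which holds Irgm1, relatives of it and genes of other GTPase families, 5 of 9 found were tested. Whether each gene of the list responds to interferon was not tested. Iigp1 and Gvin1 were listed at 0 in all 4 libraries. Of the tested genes 4 leaned higher and 1 lower, with a median of 0.70 that was 0.30 without knockdown A and 1.09 without knockdown B, and 1.29 with a pseudocount of 0.1. The tested gene on the lower side was Irgq, at 0.612 and 2.78 FPKM in knockdown libraries A and B and 4.35 and 4.26 FPKM in control libraries A and B. Of the 7 genes of this list in the promoter table, some of them not tested, 6 held the response element core. So did 12 of 26 antiviral effectors, a list with a median of -0.25, and 3.99% of all genes. Of 8 tested antigen presentation genes 3 leaned higher and 5 lower (median -0.23, or 0.05 without control A). Psmb9, an immunoproteasome subunit, stood at 0 and 1.94 FPKM in knockdown libraries A and B and 2.24 and 2.30 FPKM in control libraries A and B. Tap1, a peptide transporter, stood at 10.2 and 6.53 FPKM in knockdown libraries A and B, against 6.66 and 3.67 FPKM in control libraries A and B. B2m, the light chain of class I molecules, stood at 20.2 and 41.1 FPKM in knockdown libraries A and B and 61.9 and 22.5 FPKM in control libraries A and B, and its locus overlaps another.

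**Figure D5:**
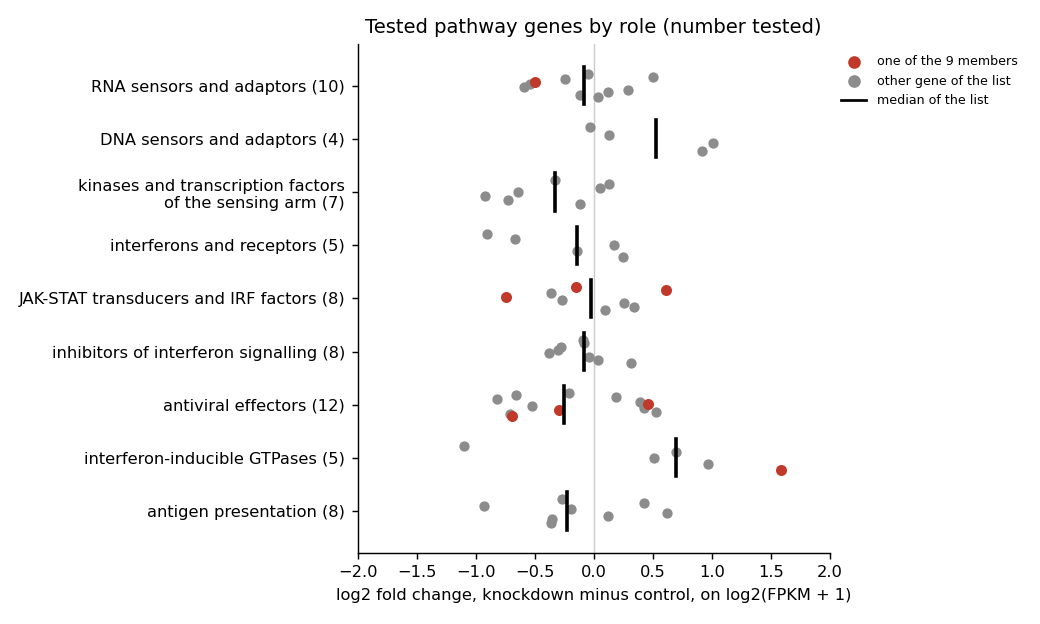
Log2 fold change of the tested genes of each list, knockdown minus control, on the log2(FPKM + 1) scale; each dot is a gene, red for the 9 members, and the black bar is the list's median. With all 4 libraries the medians run between 0.70 for the GTPases and -0.33 for the sensing kinases and factors. Without knockdown A they stand at 0.30 and -0.03, in that order, and with no filter the GTPases stand at 0.51. No gene shown was called.

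The response element core was set beside the fold changes. Among tested genes with a RefSeq window, 295 held the response element core and 8948 did not. Their median log2 fold changes were -0.04 and -0.03, groups did not overlap on the higher side for 13.2% and 15.1%, and on the lower side for 17.3% and 16.8%. Limma called 0 of the 295 genes with the core and 1 of the 8948 without it. With 0.0339% of all tested loci called, the calls are too few to compare the sets. The 6 tested members that hold it divided in direction, with Irgm1 and Ifitm3 on the higher side and Stat2, Oas1a, Eif2ak2 and Bst2 on the lower side.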

How the data were processed

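RNA of 4 libraries was compared, 2 from Kdm5b knockdown and 2 from control cells. Per the labels' protocols, ribosomal RNA was removed and strand-marked libraries of 300 bp fragments were made. The authors deposited 1 FPKM value per locus and library. Cufflinks, Cuffdiff and the mm9 build are named in the submitters' processing notes. The sources used here give neither tool versions nor the aligner nor the strand setting. A value of exactly 0 may be a failed estimate.

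Loci were named through RefSeq identifiers with a GRCm38.p6 table, used for names only: 23241 of 23697 loci had 1 symbol, 189 several and 267 none. The row of highest mean stood for a symbol. No member's interval overlaps another locus.

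Loci averaging at least 1 FPKM were tested on log2(FPKM + 1), a scale on which changes of low genes look smaller, with limma 3.58.1 in R 4.3.3 (group alone, eBayes with trend, two-sided, Benjamini-Hochberg over 11784 loci, threshold 0.05). The fit was run on simulated data whose libraries were alike in depth and spread. No simulated library stood apart as knockdown A does, so the run does not show how the fit handles such a library. Lists were described by counts and medians, without a test. Fragments were estimated from steps between low values, taking 200 bases off the GENCODE M21 transcript length; 79.5% to 82.7% of low values came within 0.15 of a whole fragment. They are given for tested members with 1 transcript, with no counting interval. Python 3.11.15, pandas 2.3.3, numpy 2.4.6 and matplotlib 3.10.9 made tables and figures.

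All 9 members are described; of each pathway list the text names the 2 tested genes with the largest absolute log2 fold change, the one with the highest mean and those at 0 throughout; marker lists are given by summed levels. A pathway gene counted in its list is not reported here. Members, lists and alternatives were chosen with earlier results of these data known. Alternatives were a pseudocount of 0.1, no filter or one at 5 FPKM, upper-quartile and quantile scaling, eBayes without trend, the replicate letter as a block, and each library left out.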

Additional observations from a re-analysis of the deposited data

How the results depend on the processing

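No member was called under any of the 87 refits of a member with another setting. The log2 fold change of Irgm1 was 1.62 without knockdown replicate B and 1.57 without knockdown replicate A. Only Irf1, at -0.15 with all libraries, changed sign, standing at 0.37 without control replicate B and 0.04 without knockdown replicate A. With 1 library left out, the ranges were 1.11 to 2.08 for Irgm1, -1.00 to -0.48 for Stat2, -0.67 to 0.37 for Irf1, 0.14 to 1.08 for Irf9, -1.28 to -0.11 for Oas1a, -0.76 to -0.24 for Eif2ak2, -0.41 to -0.16 for Bst2 and 0.12 to 0.79 for Ifitm3. The members' median ranged between -0.34 and -0.02. With a pseudocount of 0.1 Oas1a stood at -2.02, and Ifih1 could be fitted only with no filter.

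The count of called loci was 4 with all libraries, 7 with the replicate block, 1 with no filter and 2 with eBayes without trend, and 0 to 134 with 1 library left out: 0 without either control, 13 without knockdown A and 134 without knockdown B. The labels do not say what the letters A and B mark; deviations of same-lettered libraries correlated at -0.07 across loci, and the letters were not taken as pairs. The block left every fold change as it was and called no member.

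List medians ranged, with 1 library left out, between -0.14 and 0.05 for RNA sensors, 0.42 and 0.64 for DNA sensors, -0.60 and -0.03 for sensing kinases and factors, -0.51 and 0.30 for receptors, -0.06 and 0.10 for JAK, STAT and IRF genes, -0.28 and -0.06 for inhibitors, -0.47 and 0.10 for effectors, 0.30 and 1.09 for GTPases and -0.41 and 0.05 for antigen presentation. The filter at 5 FPKM gave 0.13 for DNA sensors, 0.06 for receptors and 1.59 for GTPases, where 1 gene was left. No filter gave 0.12 for DNA sensors, quantile normalization 0.02 for JAK, STAT and IRF genes, and the pseudocount of 0.1 gave 1.29 for GTPases. The median half-width of an unadjusted 95% interval was 0.901 on the log2 scale, and the adjusted threshold asks for more: Irgm1, at 1.59, was not called.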
